A study of Mus musculus with 7 samples.

Results

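Dendritic cells take up antigen, carry it to lymph nodes and present it to T cells. They arise from bone marrow progenitors under Flt3 ligand and divide into conventional type 1 cells, conventional type 2 cells and plasmacytoid cells, each with its own surface lectins and transcription factors. In the kidney they lie between the tubules, close to the macrophages and the capillaries. The levels of 7 genes used to mark dendritic cells were followed in RNA of kidney endothelial isolates: the receptor gene Flt3, the regulators Zbtb46, Batf3 and Cbfa2t3, and the lectin genes Clec9a, Cd209a and Mgl2. They were taken by symbol from the 26558 named genes of the deposited table. Each of the 7 was found on a single row, and all 7 passed the filter of a mean FPKM of at least 1. FPKM is the number of fragments per length of transcript, scaled to the mapped fragments of the library, so levels of different genes can be set side by side.

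The isolates came from 3-month-old male C57BL/6 mice and were captured with magnetic beads that carry an antibody against Cd31. There were 3 wildtype libraries, from mice carrying only the Hoxb7-Cre-GFP transgene, and 4 mutant libraries, from Hoxb7-Cre-GFP mice that also carry Vhlh loxP/loxP. The control mice thus carry the transgene too. The Hoxb7 promoter drives Cre in kidney tubule cells, so the Vhlh deletion was directed at these and not at endothelial cells. The isolates also held tubule RNA, as given below, so RNA of targeted cells may be among it. RNA was extracted without culture. The labels do not say whether libraries are separate animals, and p-values measure the spread between libraries, which may be partly technical. Absolute read depth is unknown, and relative depth lay between 0.708 and 1.0 of that of wildtype 1.

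Of the endothelial markers, Pecam1, the gene for Cd31, was listed at an FPKM of 202 to 286 in wildtype and 310 to 385 in mutant libraries. Leukocyte RNA was also present: Ptprc, the gene for the leukocyte antigen CD45, stood at 71.1 to 88.0 in wildtype and 27.1 to 38.6 in mutant libraries, and it fell by 1.28 on the log2 scale (limma adjusted p = 0.00157, standard error 0.137). The summed FPKM of 23 macrophage genes was 4765 to 7543 in wildtype and 1634 to 3342 in mutant libraries, and 17 of the 23 fell, or 11 without wildtype 2. The summed FPKM of 25 endothelial markers was 2967 to 4415 in wildtype and 4616 to 5276 in mutant libraries, and 9 of the 25 rose, or 3 without wildtype 2 or mutant 1, 4 without mutant 2 or mutant 4, and 5 without wildtype 3. The part of these shifts in the results that follow was not tested beyond the rescaled fits. Tubule RNA was present too: the summed FPKM of 20 tubule markers was 1836 to 2114 in wildtype and 2109 to 3069 in mutant libraries. Among the other cell types, 2 of 10 T and natural killer cell markers rose, 2 of 12 B and plasma cell markers fell, and 2 of 20 tubule markers rose. These few calls depended on single libraries: leaving out 1 library gave 0 to 2 for the T and natural killer cell markers, 0 to 1 for the B and plasma cell markers and 1 to 3 for the tubule markers. In all, 13420 genes were tested with limma on log2(FPKM + 1), and a gene was called where its p, adjusted by the Benjamini-Hochberg method, was under 0.05.

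Of the 7 dendritic cell markers 3 fell, Mgl2, Batf3 and Clec9a, and 0 rose (limma with Benjamini-Hochberg adjustment over all genes). For comparison, 7.34% of all tested genes were called lower in the mutant and 8.76% higher. Over all genes 985 were lower and 1176 higher, a split that was 805 and 576 with equal library totals and 1176 and 838 with median-of-ratios scaling. The median log2 fold change was -0.54 over the 7 markers and 0.04 over all tested genes. The same 3 markers lay below the wildtype range in every mutant library, which held for 12.5% of all tested genes, and the other 4 overlapped between the groups. The 3 calls were kept when any 1 library was left out. In RNA of whole isolates, fewer cells of a type and less RNA per cell cannot be told apart.

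**Figure D1:**
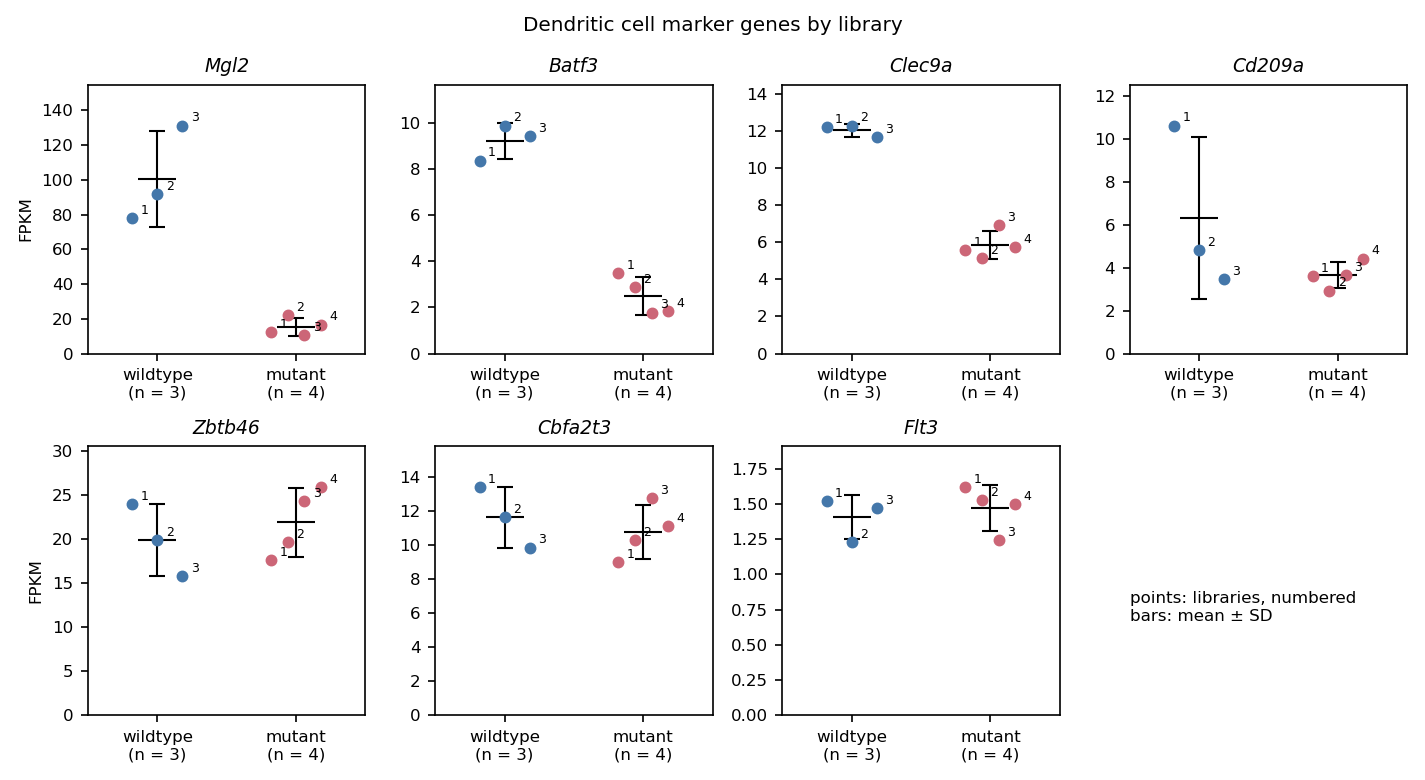
FPKM of the 7 dendritic cell markers in each library, with 1 panel per gene, wildtype libraries in blue and mutant libraries in red. Numbers are replicate numbers and bars are the mean and SD of 3 wildtype and 4 mutant libraries. Mgl2, Batf3 and Clec9a show separate groups, while Cd209a, Zbtb46, Cbfa2t3 and Flt3 overlap, and wildtype 1 stands alone for Cd209a.

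Mgl2 encodes a C-type lectin that binds galactose-type sugars and marks type 2 dendritic cells and some tissue macrophages in mice. It lies on chromosome 11 from 70130329 to 70137550 on the plus strand of mm10. Its FPKM was 78.0, 91.8 and 131 in wildtype 1 to 3 and 12.2, 21.9, 10.6 and 16.7 in mutant 1 to 4. Every wildtype library was thus far above every mutant library, and mutant 2 was the highest mutant. The means were 100 ± 27.7 (SD, n = 3) and 15.3 ± 5.10 (SD, n = 4). Mgl2 fell by 2.65 on the log2 scale (limma adjusted p = 0.00136, standard error 0.263). Of the 13420 genes tested, 15 had a log2 fold change at least as low, Mgl2 included. When 75-base words of its transcripts were compared with those of all other genes, 6.56% were found in Clec10a, a close copy on the same chromosome, so that a small share of reads could be split between them.

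Batf3 encodes a basic leucine zipper factor of the AP-1 family, which mice need to form type 1 dendritic cells. The gene lies on chromosome 1 from 191097847 to 191108945 on the plus strand. Its FPKM was 8.39, 9.91 and 9.43 in wildtype 1 to 3 and 3.49, 2.88, 1.78 and 1.85 in mutant 1 to 4. The wildtype libraries lay close together, and mutant 3 and mutant 4 were the lowest. The means were 9.24 ± 0.778 (SD, n = 3) and 2.50 ± 0.832 (SD, n = 4), which is -1.58 as a log2 fold change (limma adjusted p = 0.00186, standard error 0.179). None of its 75-base words occurred in transcripts of another gene.

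Clec9a encodes the lectin receptor through which type 1 dendritic cells sense the exposed actin of dead cells. Clec9a lies on chromosome 6 from 129408862 to 129424763 on the plus strand. Its FPKM was 12.2, 12.3 and 11.6 in wildtype 1 to 3 and 5.57, 5.14, 6.93 and 5.73 in mutant 1 to 4. The wildtype values spread by less than 1 FPKM and all mutant values were far below them. The means were 12.0 ± 0.343 (SD, n = 3) and 5.84 ± 0.765 (SD, n = 4), which is -0.94 as a log2 fold change (limma adjusted p = 0.0014, standard error 0.0957). Its first 474 bases overlap the end of Clec1b on the same strand, and 3.23% of its 75-base words are shared with that gene, which was listed at an FPKM of only 0.415 to 0.803.

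The stretches around the start sites of these 3 genes are shown because the genes fell together. Each runs from 250 bases before to 50 bases after the RefSeq start, on build GRCm38.p6, the mm10 sequence, and capitals mark matches to the ETS core AGGAAG on either strand.
Mgl2, chr11:70130107-70130406, plus strand: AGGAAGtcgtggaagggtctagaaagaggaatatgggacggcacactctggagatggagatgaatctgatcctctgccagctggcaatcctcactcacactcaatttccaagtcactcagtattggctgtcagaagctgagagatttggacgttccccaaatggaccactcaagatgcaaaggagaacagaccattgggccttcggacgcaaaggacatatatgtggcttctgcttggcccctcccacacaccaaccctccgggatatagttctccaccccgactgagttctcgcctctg
Batf3, chr1:191098164-191098463, plus strand: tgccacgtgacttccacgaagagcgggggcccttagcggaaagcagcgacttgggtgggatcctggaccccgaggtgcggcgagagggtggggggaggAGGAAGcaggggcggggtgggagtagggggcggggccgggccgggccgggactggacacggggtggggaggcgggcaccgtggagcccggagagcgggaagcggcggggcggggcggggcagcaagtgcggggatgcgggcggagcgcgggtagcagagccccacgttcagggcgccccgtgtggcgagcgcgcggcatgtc
Clec9a, chr6:129408612-129408911, plus strand: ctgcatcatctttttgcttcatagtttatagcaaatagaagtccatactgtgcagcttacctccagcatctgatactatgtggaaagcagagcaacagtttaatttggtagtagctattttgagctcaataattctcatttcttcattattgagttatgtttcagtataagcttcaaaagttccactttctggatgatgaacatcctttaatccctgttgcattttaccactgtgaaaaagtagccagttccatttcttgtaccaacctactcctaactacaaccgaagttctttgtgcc
The ETS core, the type of word bound by the myeloid factor PU.1 and by endothelial ETS factors, occurred once in the Mgl2 window, 250 bases before the start, and once in the Batf3 window, 152 bases before it. It was not found in the Clec9a window. Among the markers that were not called, it occurred in the Cd209a window, 4 bases before the start. A Cbfa2t3 window held it as well, at 236 and 161 bases before the start. Of 32841 windows of the same length, 35.4% hold it. The AP-1 word TGANTCA, present in 7.8% of windows, and the interferon-stimulated response element, present in 3.4%, were found in none of these 3 windows when both strands were searched. Zbtb46 had the only match to either of these words among the 8 windows of the 7 markers, an AP-1 match starting 61 bases before the RefSeq start. The GC content was 75.7% in the Batf3 window, 52.0% in the Mgl2 window and 37.0% in the Clec9a window, against a median of 52.7% over all windows. The Batf3 and Zbtb46 windows, and the Cbfa2t3 window without the ETS core, lie inside the genes as GENCODE M21 draws them, so other start sites may be used. No word searched was thus present in all 3 windows.

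Cd209a encodes the mouse lectin most often used as the counterpart of human DC-SIGN, known in type 2 and monocyte-derived dendritic cells. Its locus is on chromosome 8 from 3743397 to 3748984 on the minus strand. Its FPKM was 10.6, 4.83 and 3.48 in wildtype 1 to 3 and 3.61, 2.93, 3.65 and 4.42 in mutant 1 to 4. Wildtype 1 stood far above the other libraries, and wildtype 3 lay inside the mutant range. The log2 fold change was -0.54 with a 95% confidence interval of -1.23 to 0.15, and Cd209a was not called (limma adjusted p = 0.249). Without wildtype 1 the log2 fold change was -0.15 (limma adjusted p = 0.621). The tested genes whose pattern was most like it, by the root mean square difference of centred log2(FPKM + 1) values over the 7 libraries, were Npy, at 0.212, and Esm1, at 0.228. Both were also highest in wildtype 1, Npy at an FPKM of 5.79 and Esm1 at 341.

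Zbtb46 encodes a zinc finger factor of conventional dendritic cells and their precursors that is also known in mouse endothelium. Zbtb46 lies on chromosome 2 from 181387762 to 181459426 on the minus strand. Its FPKM was 23.9, 19.8 and 15.7 in wildtype 1 to 3 and 17.6, 19.7, 24.3 and 25.9 in mutant 1 to 4. The groups overlapped almost fully, and the lowest value was that of wildtype 3. The means were 19.8 ± 4.1 (SD, n = 3) and 21.9 ± 3.88 (SD, n = 4), with a log2 fold change of 0.14, a 95% confidence interval of -0.26 to 0.54 and a limma adjusted p of 0.633. Without wildtype 3 the log2 fold change was -0.01. The genes with the most similar pattern were Hoxb7, at a root mean square difference of 0.0566, and Clec14a, at 0.0608. Hoxb7 is the gene whose promoter drives the Cre in tubule cells, and Clec14a is an endothelial lectin-like gene. Clec14a stood at an FPKM of 39.2, 34.3 and 24.6 in wildtype 1 to 3, the same order as Zbtb46. Hoxb7 had this order too, at 17.5, 14.8 and 11.7. Cdh5, the endothelial junction gene, was also lowest in wildtype 3, at 86.6, but rose in the mutant (log2 fold change 0.56, limma adjusted p = 0.0316), a call that held only in the fits that left out wildtype 1 or mutant 3, the largest adjusted p being 0.093 in the others.

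Cbfa2t3 encodes a transcriptional corepressor of blood progenitors. It lies on chromosome 8 from 122625141 to 122699109 on the minus strand. Its FPKM was 13.4, 11.6 and 9.84 in wildtype 1 to 3 and 8.96, 10.3, 12.7 and 11.1 in mutant 1 to 4. The ranges of the groups overlapped. The log2 fold change was -0.10 with a 95% confidence interval of -0.41 to 0.21 (limma adjusted p = 0.655). Its nearest genes by pattern were Grap, at 0.0540, and Il15ra, at 0.0585.

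Flt3 encodes the receptor tyrosine kinase for Flt3 ligand on dendritic cells and their progenitors. Flt3 lies on chromosome 5 from 147330741 to 147400489 on the minus strand. Its FPKM was 1.52, 1.23 and 1.47 in wildtype 1 to 3 and 1.62, 1.53, 1.242 and 1.502 in mutant 1 to 4. These are the lowest levels of the 7 markers, and the groups coincided. The log2 fold change was 0.04 with a 95% confidence interval of -0.19 to 0.27 (limma adjusted p = 0.833), and the added 1 of the log scale narrows changes at such low levels. Its nearest genes were Cbfb, at 0.0322, and Snx13, at 0.0335.

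The order of the markers by level differed between the groups. In wildtype libraries the mean FPKM fell from Mgl2 through Zbtb46, Clec9a, Cbfa2t3, Batf3 and Cd209a to Flt3. Mgl2, Zbtb46 and Flt3 were each apart from their neighbours in that order in every library, whereas the ranges of Clec9a and Cbfa2t3, of Cbfa2t3 and Batf3, and of Batf3 and Cd209a overlapped. In mutant libraries Zbtb46 had the highest mean, followed by Mgl2, Cbfa2t3, Clec9a, Cd209a, Batf3 and Flt3. There the ranges of Zbtb46 and Mgl2, of Mgl2 and Cbfa2t3, and of Cd209a and Batf3 overlapped.

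Whether 2 markers changed by different amounts was tested on the difference of their log2(FPKM + 1) values in each library, with an exact permutation test over all 35 ways of assigning the 7 libraries to the groups, two-sided on the absolute difference of group means. Of 21 pairs, 14 reached the smallest p the design allows, 0.0286, which gave 0.0429 after Benjamini-Hochberg adjustment over the 21. Mgl2 fell by more than each of the other 6 markers, by 1.07 relative to Batf3 and 1.72 relative to Clec9a on the log2 scale. Batf3 and Clec9a each fell relative to Zbtb46, Cbfa2t3 and Flt3, by 1.71, 1.48 and 1.61 for Batf3 and by 1.07, 0.84 and 0.97 for Clec9a. The difference between Batf3 and Clec9a, 0.64, was not called (exact p = 0.0857, adjusted p = 0.12). Zbtb46 was higher relative to Cbfa2t3 by 0.24 and relative to Cd209a by 0.68 in the mutant. These 14 calls share 1 threshold: with a pseudocount of 0.1 only 10 pairs reached the smallest p and 0 were called (smallest adjusted p = 0.06).

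To set the markers beside other RNA in the isolates, each library was also rescaled on Ptprc, on the mean of the 23 macrophage genes and on the mean of the 25 endothelial markers, and limma was run again on all genes. Relative to Ptprc, Mgl2 was lower in the mutant by a log2 difference of -1.38 (standard error 0.195, limma adjusted p = 3.61e-06), and 0.708% of all genes were called lower on this scale. Because every gene then carries the same Ptprc values, adjusted p-values of a rescaled fit cannot be ranked against those of the unscaled fit. Relative to the macrophage genes Mgl2 was also lower, with a log2 difference of -1.14 (limma adjusted p = 0.0037), where 0.164% of all genes were called lower. This reference is the mean of genes that fell unequally, with log2 fold changes from -0.03 for Mertk to -2.31 for C1qc. C1qb, at -2.23, and Emr1, at -2.22, were likewise closer to the -2.65 of Mgl2 than that mean was. Batf3 did not pass the test on either scale, with differences of -0.30 (95% confidence interval -0.76 to 0.16) and -0.06 (-0.83 to 0.70). Clec9a did not pass either, with differences of 0.34 (-0.11 to 0.79) and 0.58 (-0.18 to 1.34). Zbtb46, Flt3, Cbfa2t3 and Cd209a were called higher on both scales, as were 95.7% of all genes relative to Ptprc and 95.5% relative to the macrophage genes.

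Relative to the endothelial markers 5 of the 7 were called lower, where 27.3% of all genes were called lower and 1.13% higher. This count was 4 without wildtype 2, wildtype 3, mutant 1, mutant 2 or mutant 4, and also with quantile normalization. Mgl2 was lower by a log2 difference of -3.03, Batf3 by -1.96, Clec9a by -1.32, Cd209a by -0.92 (limma adjusted p = 0.0146) and Cbfa2t3 by -0.48 (limma adjusted p = 0.0306). Zbtb46 had a difference of -0.24 with a 95% confidence interval of -0.57 to 0.08, and Flt3 a difference of -0.34 with one of -0.73 to 0.05, and neither was called.

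**Figure D2:**
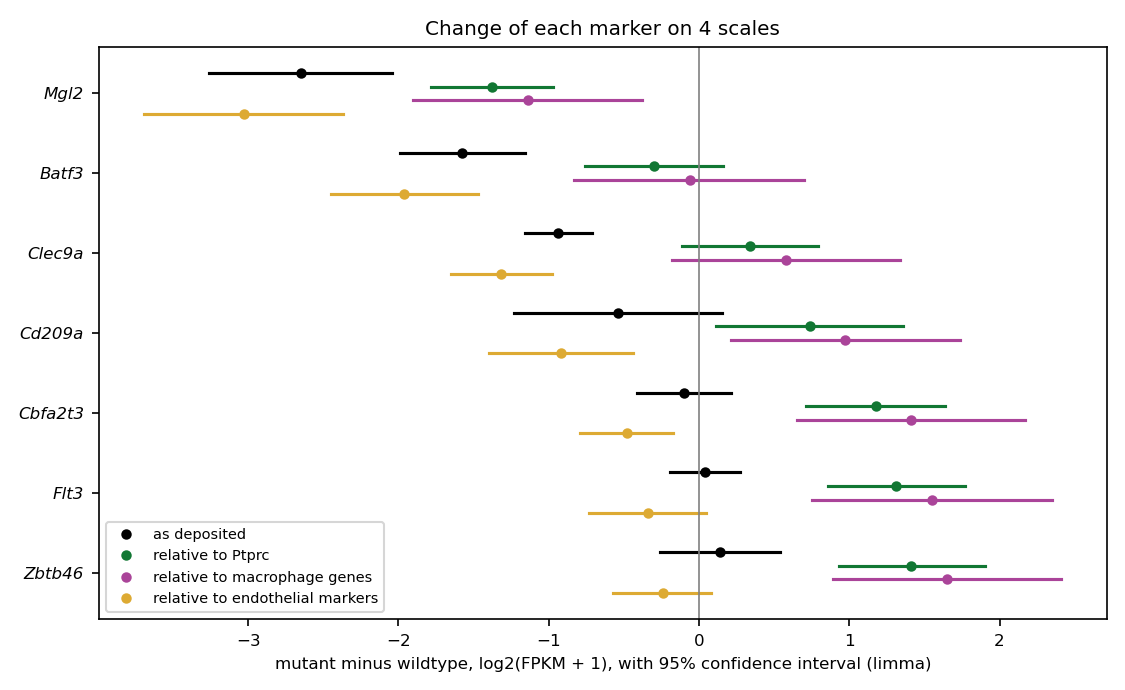
Difference between mutant and wildtype libraries in log2(FPKM + 1) for each marker, as deposited and after rescaling the libraries on Ptprc, on 23 macrophage genes or on 25 endothelial markers, with limma 95% confidence intervals. Mgl2 lies below 0 on all 4 scales, while Batf3 and Clec9a reach 0 relative to Ptprc and to the macrophage genes.

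The ligand of Flt3 did not differ beyond the spread of the libraries. Flt3l stood at an FPKM of 9.22, 9.84 and 8.25 in wildtype 1 to 3 and 6.77, 9.43, 10.1 and 9.92 in mutant 1 to 4, with a log2 fold change of -0.02 and a 95% confidence interval of -0.33 to 0.30. In the list of Flt3 ligand and related growth factor signals, 4 of 14 tested genes fell and 3 rose, with a median of 0.17. Csf2ra, the alpha chain of the receptor for GM-CSF, a cytokine that also drives dendritic cells, fell from 54.5 ± 5.59 (SD, n = 3) to 15.2 ± 4.64 (SD, n = 4). Csf1r, the macrophage growth factor receptor, fell by 2 on the log2 scale. Socs2, a feedback inhibitor induced by cytokine receptors, rose by 1.02 and Kit, the stem cell factor receptor, by 0.75. Csf2rb2 rose by 0.89 (limma adjusted p = 0.0353), a call kept in only 3 of the 7 fits that left out a library. Csf2rb was not called (log2 fold change 0.50, limma adjusted p = 0.172). The lower count was 2 without any 1 wildtype library or without mutant 4, and the higher count was 2 without wildtype 2, wildtype 3 or mutant 2. Stat5a and Lyn, also called lower, lost the call in 5 and 6 of the 7 fits that left out a library.

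Of 19 transcription factors known from dendritic cell development 10 fell and 0 rose, with a median log2 fold change of -0.49. Irf8, the factor that fixes the type 1 fate, stood at an FPKM of 26.9, 34.8 and 39.1 in wildtype 1 to 3 and 17.7, 17.1, 15.5 and 16.8 in mutant 1 to 4. The mutant values were nearly equal and all lay below wildtype (log2 fold change -0.94, limma adjusted p = 0.00326). Spi1, the gene for PU.1, listed as Sfpi1, fell by 1.73, Runx1 by 1.38, Rbpj by 1.03 and Ikzf1 by 0.83. Bcl6, Zeb2, Cebpa, Notch2 and Batf2 also fell, by 0.49 to 0.81. Zeb2 lost its call when wildtype 2, wildtype 3 or mutant 1 was left out (adjusted p up to 0.0952 in limma), Cebpa not without wildtype 2 or wildtype 3 (0.0639), and Batf2, a relative of Batf3, not without any library except mutant 4 (0.143). Irf4, the factor of the type 2 fate, had a log2 fold change of -0.27 (limma adjusted p = 0.211, and 0.0302 without mutant 4). Id2 stood at 122 and 130 (limma adjusted p = 0.733). Many of these factors also act in macrophages. Without mutant 3, 3 of the 19 were called higher.

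Genes of the type 1 class other than the markers were split. Of 12 tested genes 3 fell and 1 rose, with a median of -0.19. Cadm1, an adhesion molecule, fell from an FPKM of 13.8, 14.6 and 19.7 in wildtype 1 to 3 to 4.52, 5.48, 4.45 and 4.49 in mutant 1 to 4. Wdfy4, needed in mice for cross-presentation by these cells, fell by 1.2 and Naaa, a lysosomal amidase, by 0.79. The gene that rose, Ppap2a (log2 fold change 0.56), is a lipid phosphatase that was at an FPKM of 319.9 to 579 in the 7 libraries, and its call was lost without any library except wildtype 1 (largest limma adjusted p = 0.13). Xcr1, the chemokine receptor that defines the class, stayed under the filter, at 0.5348 to 0.8293 in wildtype and 0.140 to 0.209 in mutant libraries. The other genes of the list under the filter were Tlr11, at 0.7369 to 1.136 in wildtype and 0 to 0.161 in mutant libraries, Itgae, at 0.3054 to 0.4002 in wildtype and 0.4045 to 0.5965 in mutant libraries, and Cd207, whose groups overlapped. None of the 4 was tested. Xcr1 and Tlr11 were thus lower and Itgae higher in every mutant library, at levels where few reads stand behind a value.

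Of 16 tested genes of the type 2 class 9 fell and 0 rose, with a median of -0.82. Itgax, the gene for CD11c, stood at an FPKM of 21.3, 21.1 and 26.3 in wildtype 1 to 3 and 9.55, 12.9, 8.20 and 9.19 in mutant 1 to 4. Clec10a, the close copy of Mgl2, fell from 13.2 to 5.85, a log2 fold change of -1.06, against -2.65 for Mgl2. Sirpa fell by 1.12, Cd4 by 0.94, Cd300a by 0.88 and H2-DMb2 by 0.77. Clec4a2, Clec12a and Ms4a6c were called as well, but each lost the call without wildtype 2, wildtype 3, mutant 1 or mutant 4, and Clec4a2 and Ms4a6c also without wildtype 1 and Ms4a6c without mutant 3 (largest limma adjusted p = 0.094, 0.107 and 0.105). The count was 6 without wildtype 2, wildtype 3, mutant 1 or mutant 4. Macrophages also express several of these genes.

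Of 26 tested core genes, shared by both conventional classes, 4 fell and 3 rose, with a median of 0.02. Fgl2 fell by 1.38, Runx3 by 1.05, Pstpip1 by 1.03 and Dpp4, a peptidase, by 0.34. Dpp4 lost the call without any library except mutant 1 (largest limma adjusted p = 0.165), and Runx3 lost it without wildtype 2 (0.055). Kit rose by 0.75, Spint2 by 0.52 and Ap1s3 by 0.32. Spint2 lost the call without wildtype 2 or wildtype 3 (limma adjusted p up to 0.0735), and Ap1s3 without any library except mutant 2 (up to 0.136). The lower count was 2 without wildtype 2, and the higher count was 1 without wildtype 2 or wildtype 3 and 2 without wildtype 1, mutant 1 or mutant 4. In the list of mature, migrating cells 1 of 21 fell and 1 rose, with a median of -0.04. The counts were 0 and 0 without wildtype 2, wildtype 3 or mutant 1, 2 fell without mutant 2 or mutant 3, and 4 rose without mutant 3. Cd83 fell from an FPKM of 296 to 102, but was not called when wildtype 2, wildtype 3 or mutant 1 was left out (adjusted p up to 0.0881 in limma). Cd200 rose by 0.62, with the call lost in the same 3 fits (adjusted p up to 0.0961 in limma). Ccr7, the receptor that guides mature cells to lymph nodes, stood at 11.4, 18.9 and 13.9 in wildtype 1 to 3 and 10.7, 7.94, 12.4 and 10.8 in mutant 1 to 4 and was not called (limma adjusted p = 0.147).

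**Figure D3:**
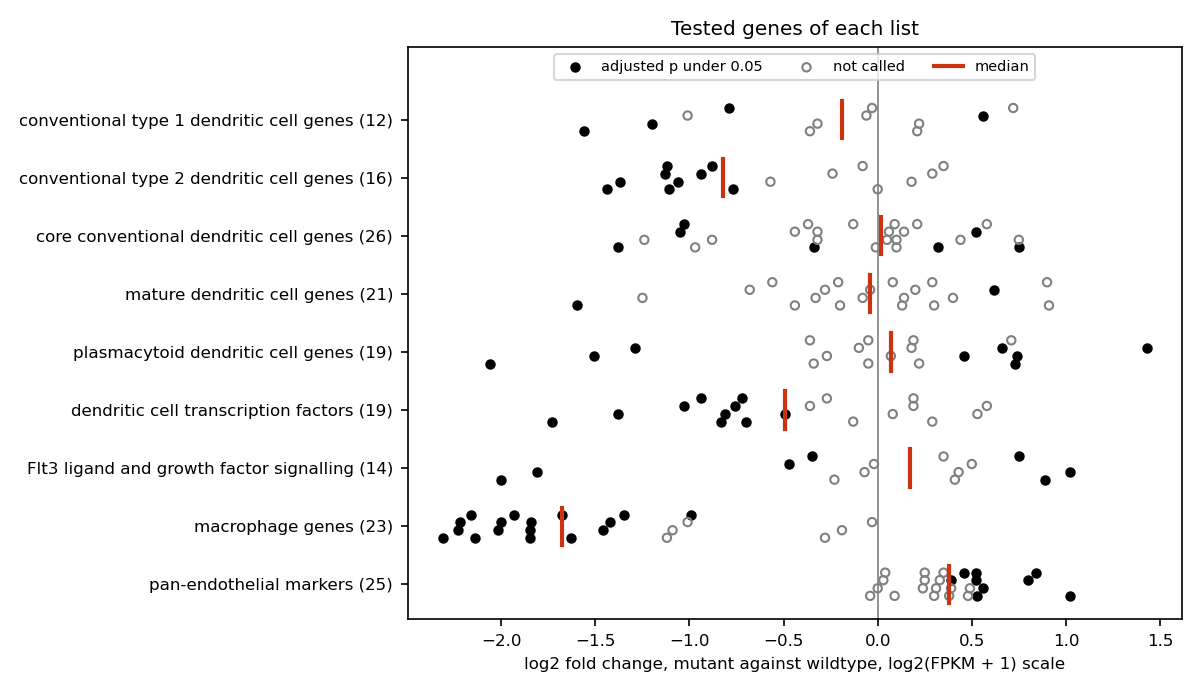
Log2 fold change of every tested gene of 9 lists on the log2(FPKM + 1) scale, mutant against wildtype, with the number of tested genes in brackets. Filled points passed an adjusted p of 0.05 in limma, open points did not, and red bars are medians. The type 2 list (median -0.82) and the macrophage list (median -1.68) lie to the left, and the plasmacytoid list has called genes on both sides.

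Genes of the plasmacytoid class went both ways. Of 19 tested genes 5 rose and 3 fell, with a median of 0.07. Siglech, the sialic acid receptor that marks these cells in mice, stood at an FPKM of 2.69, 2.78 and 3.41 in wildtype 1 to 3 and 8.44, 6.91, 11.1 and 13.2 in mutant 1 to 4. Every mutant library was above every wildtype library (log2 fold change 1.43, limma adjusted p = 0.00366, standard error 0.195), and the call was kept without any 1 library. Such a separation upwards held for 18.9% of all tested genes. Runx2 rose from 0.847 to 1.95 and Ccr9, a chemokine receptor of these cells, from 0.653 to 1.80, both lost without any 1 wildtype library (largest limma adjusted p = 0.0672 and 0.0788). Ctsl and Atp1b1, which many cell types express, rose as well, but Ctsl lost the call without wildtype 2 (limma adjusted p = 0.0583) and Atp1b1 without any library except mutant 2 (up to 0.165). Tlr9, a sensor of DNA in plasmacytoid and other immune cells, fell from 11.8 to 2.09 (log2 fold change -2.06), Lair1 by 1.51 and Tlr7 by 1.29. Tlr7 lost the call without wildtype 2 or wildtype 3 (limma adjusted p up to 0.0641). Tcf4, Spib, Irf7 and Bst2 were not called, with limma adjusted p from 0.233 to 0.660. The higher count was 1 without wildtype 2 and 2 without wildtype 1 or wildtype 3.

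**Figure D4:**
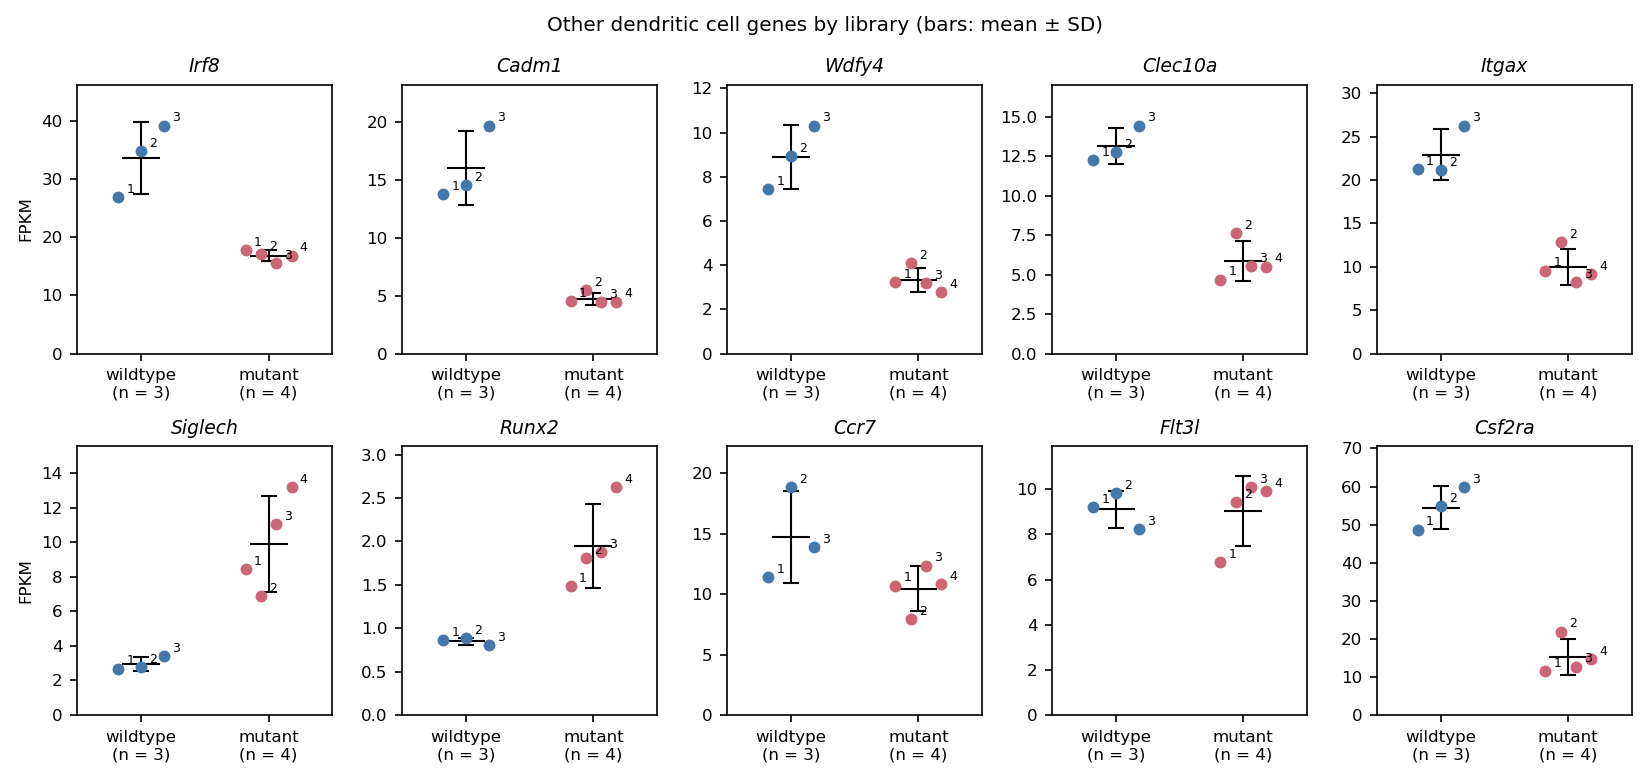
FPKM of 10 further dendritic cell genes in each library, wildtype in blue and mutant in red, with replicate numbers and bars for the mean and SD of 3 and 4 libraries. Irf8, Cadm1, Wdfy4, Clec10a, Itgax and Csf2ra are lower in every mutant library, Siglech and Runx2 are higher in every mutant library, and Ccr7 and Flt3l overlap.

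The genes with the pattern most like each of the 3 markers that fell had large falls themselves. For Mgl2 they were Lilra5, a receptor of myeloid cells, at a root mean square difference of 0.176, and C1qc, a complement chain of macrophages, at 0.252. For Batf3 they were Sema4a, at 0.177, and Rassf2, at 0.184, with log2 fold changes of -1.39 and -1.46. For Clec9a they were Hlx, a homeobox factor, at 0.0767, and Arid3b, at 0.0786, with log2 fold changes of -0.98 and -1.04. These are descriptions over 7 libraries that differ mainly by group, so many genes with a fall of like size lie near each marker.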

How the data were processed

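RNA of Cd31-captured kidney cells was sequenced in 3 wildtype and 4 mutant libraries, as stranded poly(A) paired ends per the labels' protocols. The authors deposited FPKM values, named so in the file header. The submitters' processing notes name the build mm10 and the tools RSEM 1.2.28, Bowtie2 2.3.4.1 and Trimmomatic 0.39, and the gene annotation is not given in the sources used here. Of 27014 entries, 429 without a name were left out (18.35 to 29.26% of the FPKM), and 27 repeated symbols were summed. The 13420 genes whose FPKM averaged 1 or more were tested with limma 3.58.1 in R 4.3.3, with a trend, on log2(FPKM + 1), a scale that understates changes of low genes. Tests were two-sided, with Benjamini-Hochberg adjustment and a threshold of 0.05. FPKM keeps no absolute depth, so counting intervals were not given; relative depth was read from the spacing of values under 0.3. The rescaled fits subtracted each library's log2 level of Ptprc or of a marker list. On simulated data of 13420 genes for this comparison, 87.5% of 112 changes of 1 on the log2 scale and 96.6% of 88 changes of 2 were recovered, with 15 false calls among 198.

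The markers and the 17 gene lists were chosen with earlier results of these data known. Of the list genes, 3 could not be matched to the table and 6 entries were matched through another symbol. All genes of the dendritic cell lists could be named, by default those called and the 3 with the smallest p. From other lists the 3 with the smallest p could be named, along with the 2 genes nearest to each marker, Vhl, Ptprc, Pecam1 and Cdh5. Vhl was listed at 7.24 ± 0.861 (SD, n = 3) and 6.00 ± 0.387 (SD, n = 4). The ranges were apart, at 6.71 to 8.24 in wildtype and 5.57 to 6.41 in mutant libraries. Vhl was not called (log2 fold change -0.23, limma adjusted p = 0.123). Cre acts in tubule cells, whose RNA was only a part of that in the isolates. Whether the Vhl levels bear out the labels was not tested. Other pseudocounts, filters, scalings, array weights, a replicate block and leaving out each library were tried as alternatives. Positions are from GENCODE M21 and promoter windows from RefSeq, which matched all 7 markers.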

Additional observations from a re-analysis of the deposited data

Results flagged for a closer look

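Among 70 genes named or considered, 8 had a mutant library whose gap to the nearest of the other 3, divided by the group's range, was above Dixon's critical value for 4 samples. About 1 in 20 groups would be expected to show such a gap by chance, and none of the 7 dendritic cell markers did. Mutant 2 was the high library for 7 of the 8. Its FPKM was 5.48 for Cadm1, 43.95 for Sirpa, 7.59 for Clec4a2 and 15.44 for Clec12a. It was 31.38 for Ms4a6c, 10.92 for Lair1 and 167.7 for C1qc. Mutant 3 was the low library for Snx13, at 11.23. Mutant 2 also had the highest Ptprc level of the mutant libraries, 38.6, and its part in these values was not tested.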

How the results depend on the processing

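The calls of Mgl2, Batf3 and Clec9a as lower were kept under every alternative run, and no other marker was called without rescaling. Over all genes, 985 were called lower and 1176 higher. With equal library totals 576 were called higher and 805 lower, with array weights 2258 and 1812, and without 1 library 324 to 1205 and 521 to 1085. Of the dendritic cell factors, 10 lower and 0 higher, array weights called 1 higher, and leaving out a library gave 7 to 11 lower and 0 to 3 higher. Of the type 1, type 2 and core genes, 16 lower and 4 higher, 2 were higher without a filter or with equal totals and 7 with array weights, and leaving out a library gave 11 to 18 lower and 1 to 4 higher. Relative to Ptprc, 2 markers were lower with a pseudocount of 0.1. Relative to Ptprc or the macrophage genes, 2 were higher at a mean FPKM of at least 5, where Cd209a and Flt3 are not tested, and 3 to 5 without 1 library. Of the 21 pairs, 0 were called with a pseudocount of 0.1; the pairs were not tested without a library, since too few splits remain. The cause of these differences was not tested.

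With the replicate number as a block, 423 genes were called lower and 261 higher, 4 factors lower, 5 type 1, type 2 and core genes lower and 1 higher, and 3 markers lower relative to the endothelial markers. Deviations of same-numbered libraries correlated at -0.061, 0.026 and -0.281, and 0 of 3 wildtype libraries matched best with its own number. With only 3 wildtype libraries this check cannot decide whether the number pairs samples.

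Changes near 0 turned sign when 1 library was left out. Flt3 ran from -0.02 (without wildtype 2) to 0.08, Zbtb46 from -0.01 (without wildtype 3) to 0.28 and Cbfa2t3 from -0.20 to 0.00 (without wildtype 1). Flt3l ran from -0.08 to 0.10 (without mutant 1) and was 0.03 without wildtype 2. Id2 ran from -0.00 (without mutant 4) to 0.18, and was -0.04 after quantile normalization and -0.00 with the replicate block. Hoxb7 ran from -0.01 (without wildtype 3) to 0.27, Grap from -0.12 to 0.06 (above 0 without wildtype 1, mutant 1 or mutant 2) and Il15ra from -0.20 to 0.04 (without wildtype 1). Array weights stopped before full convergence. Depth limits the lowest levels, such as those of Flt3 and Xcr1.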

Other observations

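The genes of MHC class II, which present antigen on dendritic cells, macrophages and B cells, fell in 10 of 10 tested cases (9 without wildtype 2), with a median log2 fold change of -2.22 on the log2(FPKM + 1) scale (limma), where 7.34% of all genes were called lower. Of the monocyte genes 2 of 16 were lower (1 to 5 when 1 library was left out), 1 was higher and the median was -0.18. Of 9 blood progenitor markers 2 fell and 3 rose, and leaving out 1 library gave 2 lower and 2 to 3 higher. Of 5 neutrophil and mast cell markers 1 fell and 1 rose, and both of these counts were 0 or 1 when 1 library was left out.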
